A study of Mus musculus with 12 samples.

Results

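Cholesterol synthesis in the liver was followed through 9 of its enzymes, Hmgcs1, Mvk, Mvd, Fdft1, Sqle, Lss, Cyp51, Msmo1 and Dhcr7. Every m6A peak whose gene annotation held one of these symbols was taken, which gave 28 of the 37118 peaks in the deposited table. Male wild-type C57BL/6 mice, aged 6 to 8 weeks when housed, received CdCl2 by gavage at 20 mg/kg/day or at 0 mg/kg/day until day 90, and no transgene or other agent is named for either group. The table counts 6 libraries of liver RNA, 3 cadmium and 3 control, and its columns were read as the immunoprecipitated libraries, made with an antibody that recognises m6A (N6-methyladenosine). The labels give 6 animals per group and do not tie the numbered samples to animals, so p-values measure the spread between these samples, which may be in part technical.

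Cholesterol is built from acetyl-CoA, first to mevalonate and isoprene units, then to squalene and the ring sterol lanosterol, and last through a series of sterol intermediates. Liver is a main site of this synthesis. The genes of the pathway are known as targets of the transcription factor SREBP2, which binds promoters together with NF-Y and Sp1 when sterols in the endoplasmic reticulum run low. m6A is a methyl mark on adenosines of RNA that lies mostly near stop codons and in last exons, and antibodies against it can also bind a related mark beside the cap.

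The promoters of the genes with a called peak are shown because these enzymes share regulators, and because the change of RNA amount cannot be separated here from that of the mark. Of the 9 enzymes 7 had a promoter in the RefSeq table of GRCm38.p6, and Fdft1 and Sqle did not. The search covered both strands for the sterol regulatory element (TCACNCCAC), the NF-Y box (CCAAT) and the Sp1 box (GGGCGG), and no match of one motif overlapped a match of another in the promoters of these genes. Each line gives 250 bases before to 50 after the annotated start, 5′ to 3′ on the gene's strand, with capitals at the sterol element and at the NF-Y box on either strand (CCAAT or ATTGG).
Hmgcs1, chr13:119690101-119690400, plus strand: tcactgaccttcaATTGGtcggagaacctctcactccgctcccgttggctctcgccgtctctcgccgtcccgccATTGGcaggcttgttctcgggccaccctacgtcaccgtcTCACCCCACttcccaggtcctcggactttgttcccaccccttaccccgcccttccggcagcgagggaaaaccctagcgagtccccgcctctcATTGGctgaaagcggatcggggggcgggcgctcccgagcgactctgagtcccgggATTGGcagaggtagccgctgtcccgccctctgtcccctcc
Mvd, chr8:122443373-122443672, minus strand: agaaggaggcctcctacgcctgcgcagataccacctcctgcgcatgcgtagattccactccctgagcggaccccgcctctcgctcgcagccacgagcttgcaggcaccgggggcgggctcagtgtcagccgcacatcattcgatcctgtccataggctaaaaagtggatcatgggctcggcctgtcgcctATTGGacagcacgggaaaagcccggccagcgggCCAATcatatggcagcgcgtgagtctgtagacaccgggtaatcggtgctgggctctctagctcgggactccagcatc
Msmo1, chr8:64733529-64733828, minus strand: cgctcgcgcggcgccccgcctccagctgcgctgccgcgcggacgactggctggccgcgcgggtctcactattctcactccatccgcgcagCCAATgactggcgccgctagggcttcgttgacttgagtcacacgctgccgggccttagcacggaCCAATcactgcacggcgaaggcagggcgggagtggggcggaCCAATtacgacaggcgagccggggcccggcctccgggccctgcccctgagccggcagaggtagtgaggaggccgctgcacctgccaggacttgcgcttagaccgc

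The NF-Y box was found in 7 of 7 enzymes with a promoter, counted by gene, against 41.1% of the 27025 genes and 37.4% of the 32851 promoters. The Sp1 box was also found in 7 of 7 genes, against 35.7% of promoters and 38.2% of genes. The exact sterol element was found in Hmgcs1 alone, 137 bases before the start, and 1.24% of promoters and 1.44% of genes held it. A gene with several starts, such as Dhcr7, was counted when any of its promoters matched, so the shares of genes are the like comparison. Dhcr7 held the NF-Y box at its most downstream start only. Among 10 other enzymes of the pathway 9 had a promoter, of which 8 held the NF-Y box, 8 the Sp1 box and 0 the sterol element. A match of letters is a description and shows no binding.

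Cadmium livers carried more reads than control livers over all 28 peaks of the 9 enzymes, with log2 changes of 0.15 to 1.44 and a median of 0.69. Over all 37088 tested peaks the median was -0.00312 and 49.5% of changes were above 0. After adjustment over all tested peaks, 5 of 28 rose and 0 fell, both peaks of Hmgcs1, both of Mvd and 1 of Msmo1. Over the whole series 3.55% of tested peaks were called higher. The 3 cadmium libraries all lay above the 3 control libraries at 20 of 28 peaks, against 14.4% of all tested peaks. A p below 0.05 before adjustment was reached by 25 of 28 peaks, and 11.9% of all tested peaks reached it in the same direction.

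The adjusted p is that of edgeR's quasi-likelihood test throughout, and a peak is called when it is below 0.05. Replicate numbers are batches in the labels, and with the replicate as a block 11 of the 28 peaks, in 6 enzymes, were called, where 4.65% of all tested peaks were called higher. The count rested on single libraries: it was 1 without cadmium replicate 3, 2 without cadmium replicate 1, and 3 without control replicate 1 or control replicate 2. It stayed at 5 without cadmium replicate 2. Without control replicate 3 it was 14, where 1.57% of all tested peaks were called higher. Calls over all peaks, 2325 in the main fit, fell as well. They were 1690, 1659 and 543 without cadmium replicates 1, 2 and 3, and 1976, 1699 and 1078 without control replicates 1, 2 and 3. The authors' deposited values give an adjusted p below 0.05 for 18 of the 28 peaks. DESeq2 on these counts gave the same adjusted p at all 28, and called 5.48% of all tested peaks higher. The authors call 4 of the 28 Up, those of Hmgcs1 and Mvd, and 986 peaks over the whole series. That call coincided at every peak with an unadjusted p below 0.05 and a log2 change beyond 1.

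The steepest rises were those of 2 enzymes of the mevalonate steps, Hmgcs1 and Mvd, while the third, Mvk, rose less than Dhcr7 (log2 changes 0.69 and 0.84). Levels are given for the leading peak of each gene, the one with the highest mean, in CPM (library-normalised counts). Hmgcs1, the cytosolic synthase that makes HMG-CoA, stood in controls at 17.3, 22.2 and 40.5 CPM in replicates 1, 2 and 3, and in cadmium livers at 73.3, 51.3 and 54.3 CPM. Control replicate 3 was the nearest to the cadmium libraries, and the groups did not overlap. The rise was 2.24-fold (log2 change 1.16, SE 0.28, adjusted p = 0.0379), from a control mean of 26.7 ± 12.3 CPM to a cadmium mean of 59.7 ± 11.9 CPM (SD over 3 libraries each). This peak of 105 bp lies inside the gene (chr13:119699832-119699937) and is also annotated to Gm48342, so reads of the pair cannot be told apart.

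The second peak of Hmgcs1 carries no other symbol and lies 274 bp from the annotated 3′ end (chr13:119707922-119708051). It stood at 12.5, 15.7 and 21.7 CPM in controls and at 40.4, 29.3 and 33.2 CPM in cadmium livers. It rose 2.06-fold (log2 change 1.04, SE 0.21, adjusted p = 0.0191), close to the factor of the leading peak. Neither Hmgcs1 peak was called without cadmium replicate 1, cadmium replicate 3 or control replicate 2, and without control replicate 1 the leading one was not called (adjusted p up to 0.102 for the leading peak and 0.0734 for the second).

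Mvd, which decarboxylates mevalonate diphosphate to the first isoprene unit, changed most of the 9. Its leading peak, 315 bp from the 3′ end (chr8:122433631-122434191), stood at 13.7, 15.8 and 17.0 CPM in controls and at 52.9, 34.7 and 38.7 CPM in cadmium livers. The controls lay close together and the lowest cadmium library was far above them. The rise was 2.72-fold (log2 change 1.44, SE 0.19, adjusted p = 0.00265), and the peak was called under all 11 alternatives that could be computed for it.

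A second, much smaller peak of Mvd lies 158 bp from the annotated 5′ end (chr8:122443203-122443326). Its values were 2.30, 3.23 and 3.35 CPM in controls and 11.3, 4.72 and 7.51 CPM in cadmium livers. Cadmium replicate 2 was nearest to the controls. The rise was 2.65-fold (log2 change 1.41, SE 0.30, adjusted p = 0.0215), and it was called under 7 of 11 alternatives, with an adjusted p of up to 0.0729. Both Mvd peaks are also annotated to Gm20388, and without peaks of more than 1 symbol no Mvd peak was left.

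Mvk, the kinase that phosphorylates mevalonate, had 1 peak, 184 bp from the 3′ end (chr5:114460252-114460563). It stood at 7.19, 11.2 and 15.2 CPM in controls and at 16.0, 21.1 and 17.2 CPM in cadmium livers. The groups did not overlap, but the highest control lay just below the lowest cadmium library, and the peak was not called (1.62-fold, log2 change 0.69, SE 0.24, adjusted p = 0.123). In all, 4 of 5 peaks of the mevalonate steps were called, against 3.55% of all tested peaks called higher, with a median log2 change of 1.16. These were both peaks of Hmgcs1 and both of Mvd, and peaks of the same gene are not independent.

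**Figure D1:**
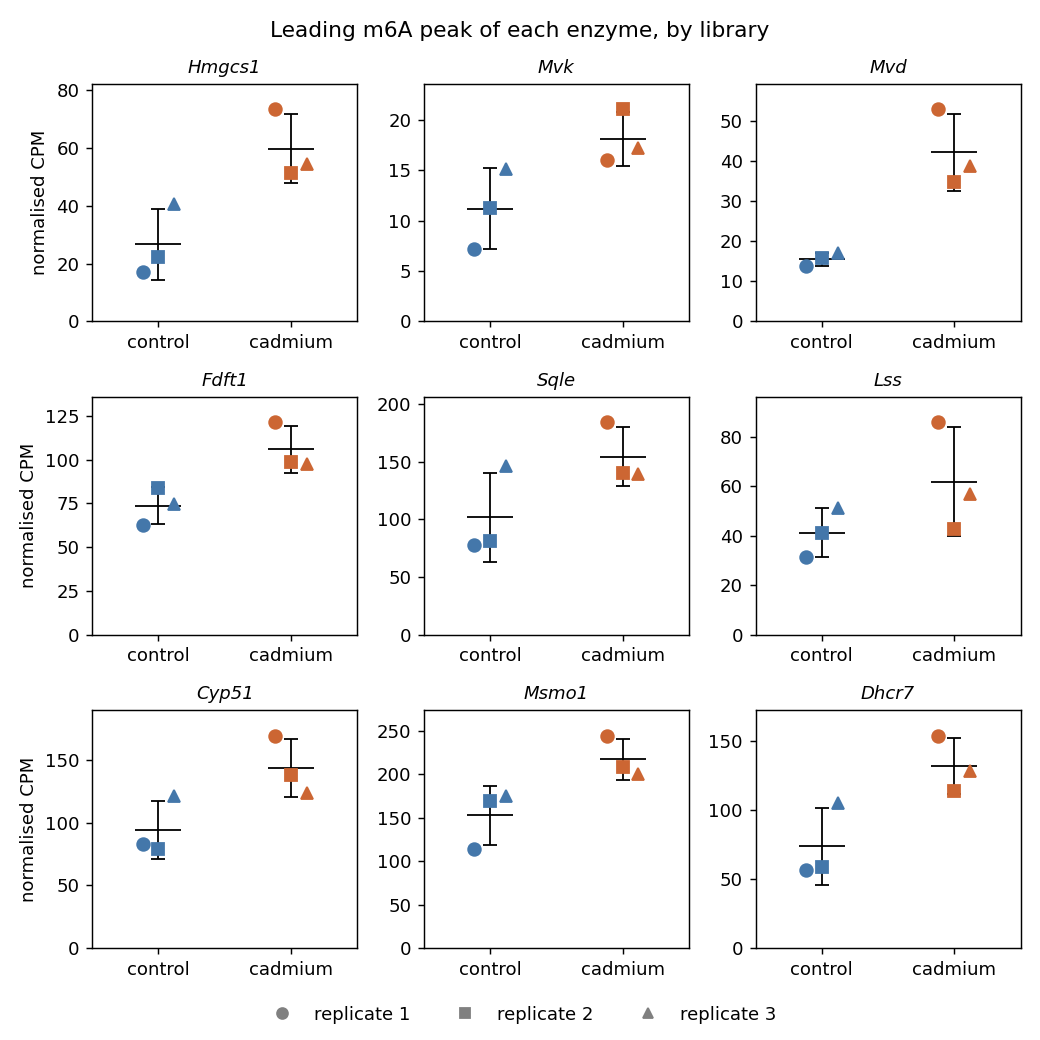
Normalised CPM of the leading m6A peak of each of the 9 enzymes (vertical axis, from 0) in 3 control and 3 cadmium libraries, with symbols for replicate, horizontal lines for group means and bars for SD. The groups do not overlap for 7 enzymes, and those of Sqle and Lss do.

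The squalene and lanosterol steps had 7 peaks with a median log2 change of 0.58, and 0 were called by edgeR with treatment alone, while the replicate block gave 1 call and DESeq2 gave 2, all of Fdft1. In these fits 3.55%, 4.65% and 5.48% of all tested peaks were called higher. Fdft1, the squalene synthase that joins a pair of farnesyl units, stood at 62.6, 84.0 and 74.6 CPM in controls and at 121, 98.9 and 97.5 CPM in cadmium livers (chr14:63146437-63146969). The groups did not overlap at this leading peak (1.44-fold, log2 change 0.52, SE 0.16, adjusted p = 0.0846).

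The peaks of Fdft1 spread more than those of any other enzyme in the set. The middle one (chr14:63164624-63164860) had overlapping groups, at 24.6, 22.5 and 22.2 CPM in controls and 27.8, 23.5 and 25.7 CPM in cadmium livers, a log2 change of 0.15. The third (chr14:63177620-63177790) went from 13.0, 11.5 and 22.8 CPM to 34.8, 25.6 and 29.3 CPM, a log2 change of 0.92 (SE 0.25, adjusted p = 0.0523), and was called with the replicate block (adjusted p = 0.0254). These peaks differed from the rest of the gene by -0.37 and 0.40 on the log2 scale, and neither difference passed edgeR's within-gene test (diffSpliceDGE). On counts summed over its 3 peaks Fdft1 was called (log2 change 0.50, SE 0.13, adjusted p = 0.0427), and with the replicate block it was not (adjusted p = 0.0620). This call held under 5 of 11 alternatives, with an adjusted p of up to 0.109.

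Sqle, the epoxidase that adds oxygen to squalene, stood at 77.7, 81.5 and 146 CPM in controls and at 184, 140.1 and 139.6 CPM in cadmium livers (chr15:59315152-59316072). Control replicate 3 exceeded cadmium replicates 2 and 3, so the groups overlapped (1.52-fold, log2 change 0.60, SE 0.24, adjusted p = 0.170). Without control replicate 3 this peak was called (adjusted p = 0.0329, log2 change 0.96), and over the 12 alternatives the adjusted p ran from 0.0329 to 0.344. At the smaller Sqle peak (chr15:59330934-59331160) the controls were even, at 10.5, 9.72 and 10.5 CPM, and of the cadmium libraries, at 22.2, 10.8 and 11.3 CPM, replicate 1 alone stood well above them.

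Lss, the cyclase that closes the rings to lanosterol, showed the same single high library. Its leading peak (chr10:76553150-76553895), which is also annotated to 4930483K19Rik, stood at 31.5, 41.3 and 51.2 CPM in controls and at 85.9, 42.8 and 56.98 CPM in cadmium livers. The groups overlapped (1.496-fold, log2 change 0.58, SE 0.25, adjusted p = 0.214), and without cadmium replicate 1 the log2 change was 0.28. Its other peak, 416 bp from the 5′ end, overlapped too, with a log2 change of 0.60.

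The later sterol steps had 16 peaks of 3 genes, with a median log2 change of 0.70. Of these 1 was called, against 3.55% of all tested peaks called higher, and 12 did not overlap, against 14.4%. The replicate block called 6, of Dhcr7 (3), Msmo1 (2) and Cyp51 (1), against 4.65% of all tested peaks called higher. Cyp51, the demethylase that acts on lanosterol, had 6 peaks with log2 changes of 0.61 to 0.73 and adjusted p of 0.0729 to 0.230. Its leading peak (chr5:4082545-4083324) stood at 83.1, 79.5 and 121 CPM in controls and at 169.6, 138 and 124 CPM in cadmium livers. Control replicate 3 came within a few CPM of cadmium replicate 3, and the peak was not called (1.52-fold, SE 0.19 on the log2 scale, adjusted p = 0.0940). With the replicate block 1 of the 6, starting at 4091780, was called (adjusted p = 0.0444).

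Msmo1, an oxidase that acts after Cyp51 in the removal of methyl groups from the sterol ring, had 6 peaks, of which 1 was called. The called peak (chr8:64722395-64722643) lies within the gene, 4396 bp from the 3′ end, and stood at 16.2, 21.1 and 23.1 CPM in controls and at 40.6, 35.6 and 32.9 CPM in cadmium livers. All cadmium libraries lay well above all controls. It rose 1.81-fold (log2 change 0.86, SE 0.17, adjusted p = 0.0183), and was called under 11 of 12 alternatives, the exception being without cadmium replicate 3 (adjusted p = 0.0611).

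The leading peak of Msmo1 near the 3′ end (chr8:64718617-64719217) moved less. It stood at 114, 169 and 175 CPM in controls and at 244, 208 and 199.8 CPM in cadmium livers (1.42-fold, log2 change 0.51, SE 0.18, adjusted p = 0.128). Toward the 5′ end the last 2 peaks, at 1025 and 110 bp from it, had log2 changes of 0.75 and 0.69, and the outermost was called with the replicate block (adjusted p = 0.0379). The within-gene test called none of the 6 peaks as departing from the others. Leading peaks lay within 1000 bp of the annotated 3′ end in 3 of the 7 enzymes with known ends, against 33.1% of 9180 genes.

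Dhcr7, the reductase of the final step to cholesterol, had 4 peaks that changed almost alike, with log2 changes of 0.81 to 0.87. Its leading peak (chr7:143847046-143847692) stood at 56.7, 58.7 and 105 CPM in controls and at 154, 114 and 129 CPM in cadmium livers. Control replicates 1 and 2 lay far below, and control replicate 3 close to, the cadmium libraries. With treatment alone none of the 4 was called (leading peak 1.80-fold, log2 change 0.84, SE 0.24, adjusted p = 0.0615), and 3 of the 4 were called with the replicate block (leading peak, adjusted p = 0.0346). The leading peak was also called without control replicate 3 (adjusted p = 0.0151). The smallest Dhcr7 peak (chr7:143830260-143830409) begins inside the RefSeq promoter window of the gene's most downstream start (chr7:143829964-143830263).

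**Figure D2:**
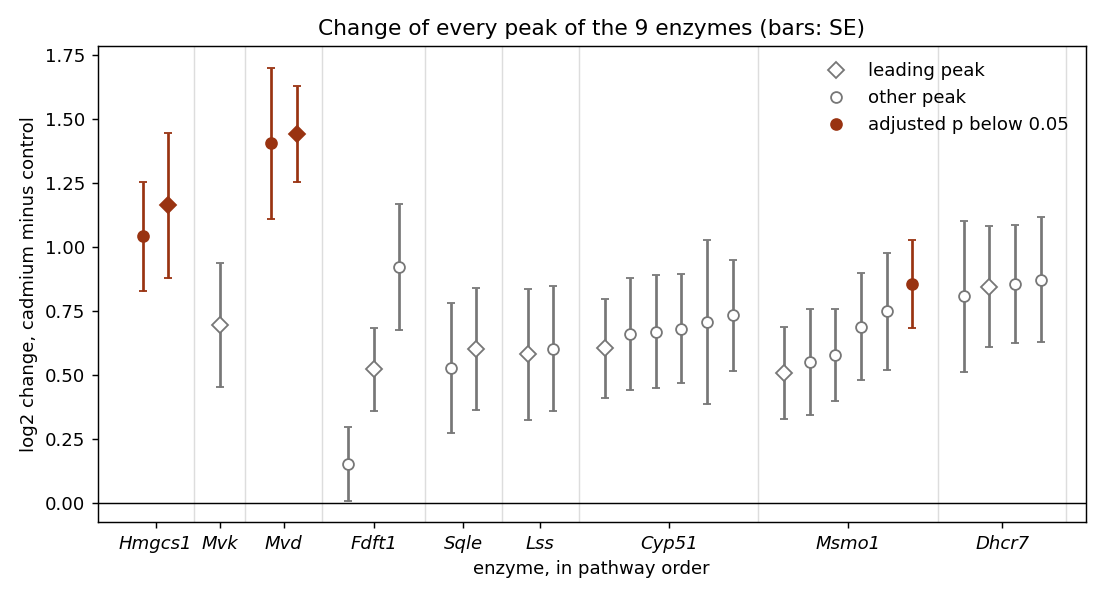
Log2 change of all 28 peaks, cadmium minus control (vertical axis, bars are SE), by enzyme in pathway order, with diamonds for leading peaks and filled symbols for an adjusted p below 0.05. All lie above 0, and the filled ones are those of Hmgcs1 and Mvd and 1 of Msmo1.

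Within genes the peaks did not depart from each other beyond the spread between libraries. Of the 28 peaks 23 could be tested against the other peaks of the same annotation, 0 were called, and 0 had an unadjusted p below 0.05 in edgeR's within-gene test. Over all genes the test called 0.0296% of 30443 peaks, so it made few calls anywhere. On counts summed over all peaks of a gene, 3 of the 9 enzymes were called, Hmgcs1 (log2 change 1.104), Mvd (1.42) and Fdft1 (0.50), and 5.98% of 13050 genes were called higher. By leading peak 2 of 9 were called, against 4.40% of genes higher and 2.40% lower.

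The members varied together from library to library, also within a group. Control replicate 3 was the highest control at 25 of 28 peaks, whereas it was the highest at 30.6% of all tested peaks. Cadmium replicate 1 was the highest cadmium library at 26 of 28, against 38.7% of all tested peaks. The mean log2 level of the 9 leading peaks, set to 0 at the control mean, was -0.34, -0.05 and 0.39 in control replicates 1, 2 and 3 and 1.04, 0.66 and 0.69 in cadmium replicates 1, 2 and 3. Over the 36 pairs of enzymes the Pearson r of leading peaks across the 6 libraries had a median of 0.86 (0.59 to 0.99), and on deviations from the group means it had a median of 0.71 and was above 0 in all 36. These points share the library, its depth and its scaling. The 36 pairs reuse the same 9 peaks, and r was not computed for pairs of other genes.

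Batches differed in the size of the ratio of cadmium to control, which was largest in batch 1 for all 9 leading peaks. It was above 1 at 28 of 28 peaks in batch 1, at 28 in batch 2 and at 25 in batch 3. For Hmgcs1 the log2 ratio of the leading peak was 2.09, 1.21 and 0.42 in batches 1, 2 and 3, and for Dhcr7 it was 1.44, 0.96 and 0.29. Mvd kept a log2 ratio of 1.95, 1.14 and 1.19. Sqle was at 1.24, 0.78 and -0.07, and Cyp51 at 1.03, 0.80 and 0.03. Lss, Mvk and Msmo1 were at 0.15, 0.18 and 0.19 in batch 3, so that this batch showed little difference at most of the enzymes. Lss was also near 0 in batch 2, at 0.05.

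**Figure D3:**
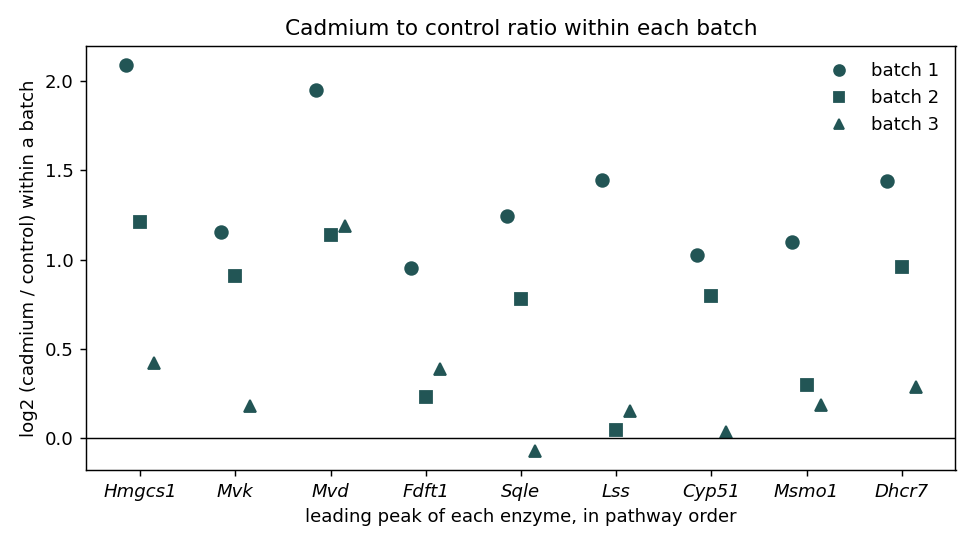
Log2 ratio of cadmium to control CPM within each of the 3 batches (vertical axis) for the leading peak of the 9 enzymes in pathway order. Batch 1 lies highest for all 9. Batch 3 lies near 0 for Sqle and Cyp51 and at 0.15 to 0.19 for Lss, Mvk and Msmo1, but at 1.19 for Mvd.

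Of 10 other enzymes of the pathway, 9 had a peak (Tm7sf2 had none), 0 were called by edgeR or by DESeq2, and 1 had an unadjusted p below 0.05 in edgeR. By leading peak edgeR called 4.40% of all genes higher and 2.40% lower, so 0 calls in so short a list is near those shares. Their median log2 change was 0.35, with 8 of 9 above 0. Not every gene of the pathway or of the lists that follow is reported here, so these counts do not stand for the whole pathway. Early enzymes were at 0.32 (Acat2), 0.48 (Pmvk), 0.60 (Idi1) and 0.48 (Fdps, shared with Gm43738), and sterol enzymes at 0.56 (Nsdhl), 0.35 (Sc5d), 0.17 (Hsd17b7), 0.16 (Ebp) and -0.38 (Lbr, shared with Dnah14).

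Of 5 regulators of sterol supply and transport, 1 was called, against 4.40% of all genes called higher and 2.40% lower by leading peak. Insig2, which retains the SREBP complex in the endoplasmic reticulum, stood at 21.3, 21.2 and 21.8 CPM in controls and at 32.9, 28.2 and 36.4 CPM in cadmium livers, without overlap, and rose (log2 change 0.60, SE 0.15, adjusted p = 0.0414). Srebf2 itself was at 0.33 and its escort Scap at 0.45, while the SREBP2 targets Insig1 and Stard4 were at 0.13 and 0.04, and none of these 4 was called. Of the branches that leave before sterols, 0 of 4 measured genes were called (Ggps1, Dhdds, Pdss2 and Coq2, log2 changes 0.13 to 0.29), and of ketone body synthesis, which shares HMG-CoA, 0 of 2 (Bdh1 at -0.13 and Acat1 at 0.09). In lists this short, counts of 0 are near the shares over all genes.

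**Figure D4:**
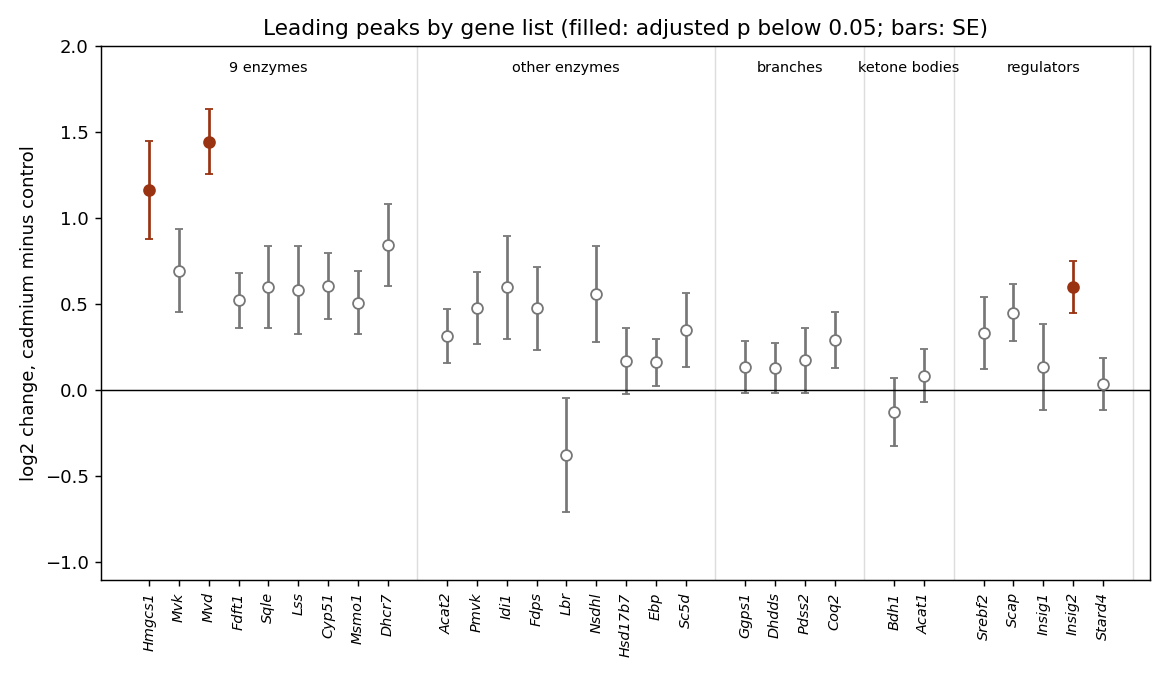
Log2 change of the leading peak, cadmium minus control (vertical axis, bars are SE), of the 9 enzymes, 9 other enzymes of the pathway, branches before sterols, ketone body genes and regulators. Filled points have an adjusted p below 0.05 and are Hmgcs1, Mvd and Insig2.

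The genes whose leading peaks were most like the mean profile of the 9 enzymes were picked among 9703 genes with a mean of at least 5 CPM by Pearson r over the 6 libraries. They were Hlcs (r = 0.993), the zinc and manganese transporter gene Slc30a10 (0.992), Bloc1s2 (0.989), Cavin1 (0.987) and Rwdd3 (0.984). On deviations from the group means the r of these 5 ran from 0.955 to 0.986. Picking by r over the same libraries favours such values, so they are a description only. Of these Slc30a10 was called, at a log2 change of 0.81 (adjusted p = 0.0301). Hlcs, Bloc1s2, Cavin1 and Rwdd3 were not called, at 0.66, 0.13, 0.62 and 0.58. A pick by a profile that is higher in cadmium also favours calls. The r of pathway genes outside the set reached 0.96 for Scap, 0.92 for Pmvk and 0.89 for Fdps, and was as low as 0.68 for Ebp, 0.60 for Srebf2, 0.23 for Insig1 and -0.03 for Stard4.

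Counts in peaks totalled 40174736 to 52338612 per library, and the 28 peaks held 113 to 11497 counts each, so counting error was small beside the spread between libraries. Hepatocyte markers dominated as labelled: 6 of 6 were measured, 0 were called, and their summed leading peaks were at 8151 to 9013 CPM in controls and 7859 to 8979 CPM in cadmium livers. Most of this sum came from Alb, Apoa1 and Serpina1a. Of the 6 changes 3 were above 0. Hnf4a was lower in all cadmium libraries than in all controls (log2 change -0.35, adjusted p = 0.154), and Cps1 was at -0.36 with overlapping groups. At leading peaks the groups did not overlap, with cadmium higher, for 2 of 5 Kupffer, 4 of 5 stellate and 0 of 2 lymphocyte markers. They did so for 1 of 4 endothelial, 0 of 3 bile duct and 0 of 2 erythroid markers, against 14.4% of all tested peaks. Over all genes 4.40% were called higher by leading peak. Clec4f, whose own groups overlapped, made up most of the Kupffer sum. The summed markers of Kupffer cells, stellate cells and lymphocytes did not overlap between the groups, and those of endothelium, bile duct and erythroid cells did. Those of Kupffer cells summed to 88.6 to 120.1 CPM in controls and 128 to 162 CPM in cadmium livers (2 of 5 measured called higher, Cd5l and Csf1r, with Clec4f, Marco and Vsig4 not called at log2 changes of 0.14, -0.35 and -0.81, and Adgre1 without a peak), and those of stellate cells to 55.8 to 77.8 and 94.5 to 109.7 CPM (1 of 5, Col1a1). Endothelial markers summed to 69.8 to 111 and 77.3 to 113 CPM (1 of 4, Lyve1), and bile duct markers to 22.4 to 29.6 and 18.7 to 66.7 CPM (0 of 3, Krt19 without a peak). Endothelial Clec4g had no peak. Lymphocyte markers were near 0, at 1.38 to 2.41 and 2.46 to 3.58 CPM (0 of 2, with Cd79a and Ms4a1 without a peak), and erythroid markers summed to 86.6 to 155.6 and 76.6 to 272 CPM (0 of 2, Hbb-bs and Hbb-bt without a peak). Their part in the results on cholesterol enzymes was not tested, and in bulk RNA a change in the number of cells of a type and a change in RNA per cell cannot be told apart. Input libraries were not used here, so RNA amount and methylated share cannot be told apart either.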

How the data were processed

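m6A-immunoprecipitated RNA from livers of cadmium and control mice was analysed as 1 table of peaks. The authors deposited read counts per peak in 6 libraries, with their log2 fold changes and p-values. Per the submitters' processing notes, which give no role, order or settings, the build was mm10, and the tools named were MACS2 2.1.1, DESeq2 4.1.0 (version as written there), STAR 2.7.1a, cutadapt 1.1.8 and SAMtools 1.3.1. The labels do not state how peak calling treated replicates. Columns carry library numbers that immunoprecipitated and input libraries share, and were taken as the former; the group is the same either way.

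Counts were tested on the whole table with edgeR 4.0.16 in R 4.3.3 (TMM, filterByExpr with a minimum count of 10 and a minimum total of 15, quasi-likelihood F test, treatment as the only term), with Benjamini-Hochberg adjustment over all 37088 tested peaks. The scripts were tested on simulated data. An SE is the size of the log2 change divided by the root of F. Alternatives were other scalings, DESeq2 1.42.0, no filter, the replicate block, single-symbol peaks, another leading peak and each library left out. Replicate numbers are batches in the labels, and same-numbered samples deviated together (r = 0.149, 0.218 and 0.178 for the 3 pairs). All 9 enzymes were named, with every leading and every called peak in full. The enzymes and all gene lists were chosen with earlier results of these data known. Some genes of the lists are not reported here and were left out of the lists' counts and medians, not for their values. Coordinates are those of the deposited table.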

Additional observations from a re-analysis of the deposited data

How the results depend on the processing

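All 28 peaks kept a log2 change above 0 with the replicate block and with DESeq2, which use the same 6 libraries. They also did without control replicate 3, the highest control at 25 of 28 peaks, whose removal tends to raise the changes. Signs of all 28 peaks were not counted with other libraries left out. The leading peaks stayed above 0 in those fits, the lowest at 0.28 for Lss without cadmium replicate 1. The main count of 5 called peaks became 8 with upper quartile scaling, 18 with DESeq2, 11 with the replicate block and 2 without peaks of more than 1 symbol. The 18 of DESeq2 repeat the authors' deposited adjusted p and are not a separate result. Of the leading peaks 2 were called, against 5 with DESeq2 and 1 without peaks of more than 1 symbol. On summed counts 3 enzymes were called, against 5 with upper quartile scaling and 7 with DESeq2. Over all peaks edgeR called 2325 and DESeq2 3683. Leaving out 1 library at a time gave 543 to 1976 calls over all peaks, 1 to 14 among the 28 peaks, 1 to 4 leading peaks, 0 other enzymes, 350 to 1022 genes on summed counts and 1 to 6 enzymes on summed counts. The lowest counts over all peaks and genes came without cadmium replicate 3. The cause of these shifts was not tested. Counts of 113 to 11497 per peak and library leave the 3 libraries per group as the limit of precision.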
